A study of Mus musculus with 2 samples.

Results

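The genes described here encode the pore-forming and accessory subunits of potassium channels, other than those that repolarise the cardiac action potential. They are the protein-coding genes of GENCODE M21 whose symbol starts with Kcn, on the mm10 assembly. Of 94 such genes, 11 that are best known for cardiac repolarisation were left out (Kcnq1, Kcnh2, Kcnj2, Kcnj3, Kcnj5, Kcnj8, Kcnd2, Kcnd3, Kcnip2, Kcna5 and Kcne1). The other 83 are the members, among 21911 protein-coding genes in all. The choice used symbols only and no measured value, though earlier results of these data were known when it was made. DNase-seq maps open chromatin by cutting nuclei with the enzyme DNase I, and it was done on heart tissue of male B6CASTF1/J mice aged 14 days. These mice are a first-generation cross of C57BL/6J with CAST/EiJ. There were 2 biological replicates of this 1 group and no contrast, so values are set beside those of all protein-coding genes and no test between conditions was possible. Replicate 1 is labelled as 3 males, and for replicate 2 no count of animals is labelled. The spread between the replicates may therefore include pooling.

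Potassium channels let potassium ions leave the cell and so hold or restore the resting voltage. Voltage-gated channels open on depolarisation, and some of their subunits are silent alone and only modify a partner. Inward rectifiers pass current best near the resting voltage, tandem-pore channels carry a background leak, and a further group opens on internal calcium or sodium. Accessory subunits have no pore and change the gating or surface level of the others. In heart tissue such channels are found in muscle cells, in the vessel wall, in blood cells and in nerve. By these roles the members were 35 voltage-gated genes, 11 inward rectifiers, 14 tandem-pore genes, 8 calcium- or sodium-activated genes and 15 accessory genes.

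A promoter was taken as 1 kb either side of any annotated start, and a gene was called open where a peak of each replicate overlapped it. The peaks of the replicates could lie at different sites or starts. At Kcnj6, Kcnma1 and Kcnc2, for example, the highest peaks of the replicates do not overlap. The peak signal is the authors' value, taken as scaled to read depth, and a gene's value is its highest promoter peak. The depth behind each value is unknown, because the read totals were not analysed here. The replicates held 143122 and 125118 peaks, 350009 and 335568 footprints, and 104208 merged regions with a peak in each. All 8 cardiomyocyte markers were open, as were all 6 endothelial, all 6 smooth muscle and pericyte and all 5 fibroblast markers. Of 6 leukocyte markers 2 were open (Spi1 and Cd68), and Ptprc, Csf1r, Cd3e and Cd79a had no promoter peak. Of 9 neuron and glia markers 5 were open, led by Snap25 at 6.54 and 5.83, while Elavl3, Sox10 and Th were among those with none. In a whole tissue, fewer nuclei with an open promoter and less accessibility per nucleus cannot be told apart.

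Potassium channel promoters were usually open in these hearts, and at low signal. Of the 83 members, 64 (77.1%) were open, against 68.8% of all protein-coding genes. Open members had medians of 1.12 (replicate 1) and 1.32 (replicate 2), against 7.07 and 6.11 for all open genes. Averaged over the replicates, 3 of the 64 lay above the median open gene, Kcnab2 and Kcnh1 among them, and 41 lay in the lowest 25% of open genes. How the share compares depended on the peaks counted. With the smaller, stricter peak set 65.1% of members were open, against 65.3% of all genes, and with the stronger 50% of each replicate's peaks 49.4%, against 62.3%. Counting only peaks at the promoter of a single gene, 64 of 83 members were open, against 58.6% of all genes.

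Other lists of heart and channel genes also had medians below that of all open genes. The 11 cardiac repolarisation genes were all open, with a median of 1.65, led by the inward rectifier gene Kcnj2 at 11.4 and 8.70. The median over the 8 cardiomyocyte markers was 2.08, and Myh6, the cardiac myosin heavy chain, had 1.88 and 1.12. Of 14 sodium channel genes 9 were open, with a median of 1.37. Of 26 voltage-gated calcium channel genes 20 were open, with a median of 2.26. The part of each cell type in a member's signal was not tested.

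**Figure D1:**
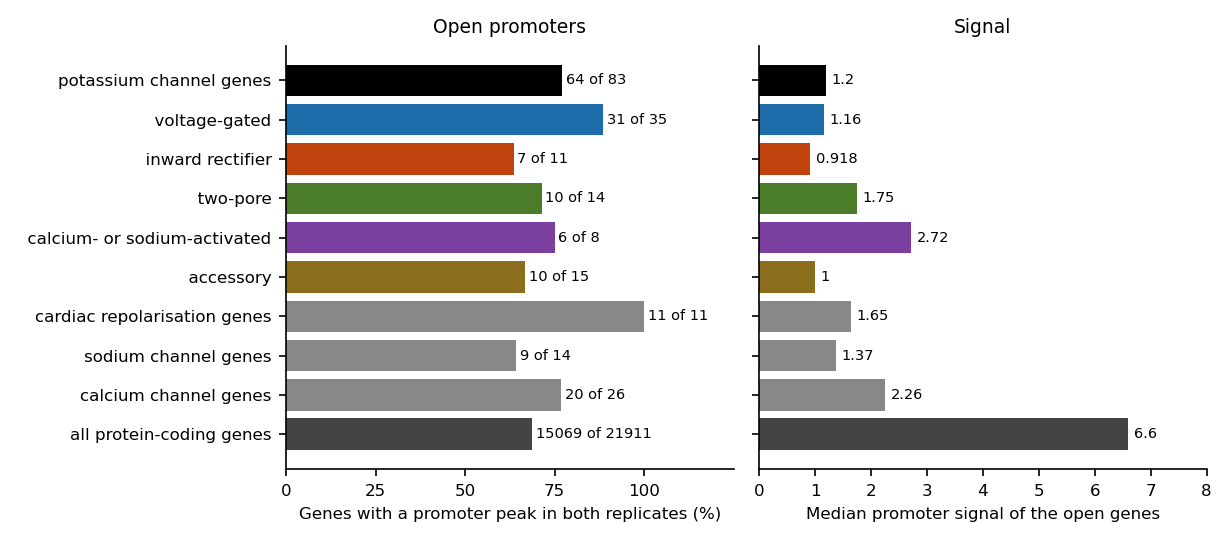
Left, the percentage of genes with a promoter peak in both replicates, for the potassium channel genes, their 5 classes, other lists and all protein-coding genes; right, the median promoter signal of the open genes, as means of the replicates. The channel classes span 63.6% to 88.6% open, around the 68.8% of all genes, while each class median, 0.918 to 2.72, lies below the 6.60 of all open genes.

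The voltage-gated class was the most often open, at 31 of 35 genes (88.6%), with a median signal of 1.16. Of its pore-forming genes 22 of 25 were open, and of its silent modifiers 9 of 10. All 7 members of the Kcna subfamily and all 4 of Kcng were open, as were both Kcnv genes. Kcnh had 5 of 7 open and Kcns 2 of 3, and the single members of Kcnd and Kcnf, Kcnd1 and Kcnf1, were open at means of 0.608 and 0.482. The class order by share open is not tested, since genes are not replicates.

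Kcnh1, an ether-a-go-go channel best known from brain, had the highest signal of the class, at 8.10 in replicate 1 and 7.90 in replicate 2 (mean 8.0 ± 0.144, SD, n = 2). Kcng2, a silent modifier, had 6.06 and 5.26. Kcnh1 and Kcng2 lay at percentiles 57.8 and 44.7 of all open genes. Kcnh6 had 5.19 and 3.89. The fast delayed rectifier gene Kcnc1 had 3.85 and 3.86. Kcng2 and Kcnh6 were the higher in replicate 1, while the replicates of Kcnh1 and Kcnc1 nearly coincided.

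Among the Shaker-type genes, Kcna7, described in heart and skeletal muscle, had 4.15 and 3.04. Kcna3, the main voltage-gated potassium channel of lymphocytes, had 3.24 and 3.03. Kcna4, an early transient channel of heart and brain, had 1.24 and 1.5, and the nerve channels Kcna2 and Kcna1 had 0.780 and 0.812, and 0.404 and 0.519. Kcna10 had 1.51 and 0.961, and Kcna6 had 1.06 and 1.05. The order from Kcna7 down to Kcna1 thus covered a wide range, and Kcna7 and Kcna3 overlapped between replicates.

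Of the M-current genes, Kcnq5 had 2.54 and 2.71 and Kcnq3 had 0.766 and 1.20. Kcnq3 was higher in replicate 2. Among the silent genes Kcns2 had 3.38 and 3.52, Kcng1 1.4 and 1.34, Kcns3 0.887 and 1.29, Kcng3 0.837 and 0.842, Kcnv2 0.837 and 0.710, and Kcnv1 0.227 and 0.215, the lowest mean of the open members. Further open genes of the class were Kcnh4, Kcnh3, Kcnb2, Kcnc4, Kcng4, Kcnc2 and Kcnh5, with means of 1.87, 1.29, 0.973, 0.831, 0.631, 0.484 and 0.346.

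The inward rectifiers were open in 7 of 11 genes. Kcnj11, the pore subunit of the ATP-sensitive channel of heart muscle and beta cells, had the highest signal of the class at 4.28 and 3.43. Abcc8 and Abcc9, sulfonylurea receptor genes whose proteins pair with that pore, had 1.97 and 1.38, and 1.81 and 1.87. Kcnj4 had 2.71 and 2.54, and Kcnj10, a glial channel, had 2.16 and 1.48. Kcnj12, a close relative of Kcnj2 that is expressed in heart muscle, had 0.887 and 0.949. Kcnj15 had 0.553 and 0.591, Kcnj6 had 0.199 and 0.406, and Kcnj16 had 0.220 and 0.233. Kcnj1, Kcnj9, Kcnj13 and Kcnj14 had no peak in either replicate, and Kcnj1 and Kcnj13 are best known from kidney and other epithelia.

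The tandem-pore genes were open in 10 of 14 cases, with a median of 1.75. Kcnk3, an acid-sensitive leak channel of heart and pulmonary artery, led at 5.92 and 6.17, below the median open gene in replicate 1 and just above it in replicate 2. Kcnk5, another acid-sensitive channel, had 5.28 and 3.84. Kcnk6 had 2.67 and 2.54, Kcnk12 2.38 and 2.76, and Kcnk13 2.62 and 2.15. Kcnk2, a stretch-sensitive channel found in cardiac muscle, had 0.894 and 1.32. Kcnk7, Kcnk10, Kcnk1 and Kcnk15 had means of 0.988, 0.488, 0.384 and 0.371. Kcnk9, a leak channel of neurons, and Kcnk18 had no peak.

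The calcium- and sodium-activated genes had the highest class median, 2.72, from 6 open genes of 8. The small-conductance calcium-activated channel genes Kcnn3, Kcnn2 and Kcnn1, which are present in atrial muscle and nerve, had 4.94 and 3.21, 3.73 and 2.72, and 2.83 and 2.32. Their intermediate-conductance relative Kcnn4, a channel of red cells, T cells and endothelium, had no promoter peak. The sodium-activated genes Kcnt2 and Kcnt1 had 3.38 and 2.36, and 0.730 and 0.812. Kcnma1, the large-conductance channel of smooth muscle, had 0.418 and 0.633, low for the class. Kcnu1, a sperm channel, had no peak.

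The accessory genes were open in 10 of 15 cases. Kcnab2, a cytosolic beta subunit, had the highest signal of any member at 19.2 and 14.3 (mean 16.7 ± 3.45, SD, n = 2). That peak lies 66 bp upstream of a Kcnab2 start in replicate 1, and the windows of Nphp4 hold it too. Counting only peaks that touch no other gene's promoter, the Kcnab2 mean was 0.603. It was the only member whose highest peak was shared in this way. Kcnip3, a calcium sensor that binds transient channels and DNA, had 5.52 and 5.66, and Kcnab3 had 6.03 and 4.20. Kcne3, a single-span subunit, had 2.04 and 1.32, and Kcnmb4, the neuronal beta subunit of the large-conductance channel, had 1.21 and 1.49. The vessel-wall beta subunit Kcnmb1 had 0.603 and 0.328, Kcne4 had 0.674 and 0.633, and Kcnab1 had 0.461 and 0.418. Kcnip4 and Kcne1l averaged 0.545 and 0.276. Kcne2, Kcnmb3 and Kcnrg had no peak.

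**Figure D2:**
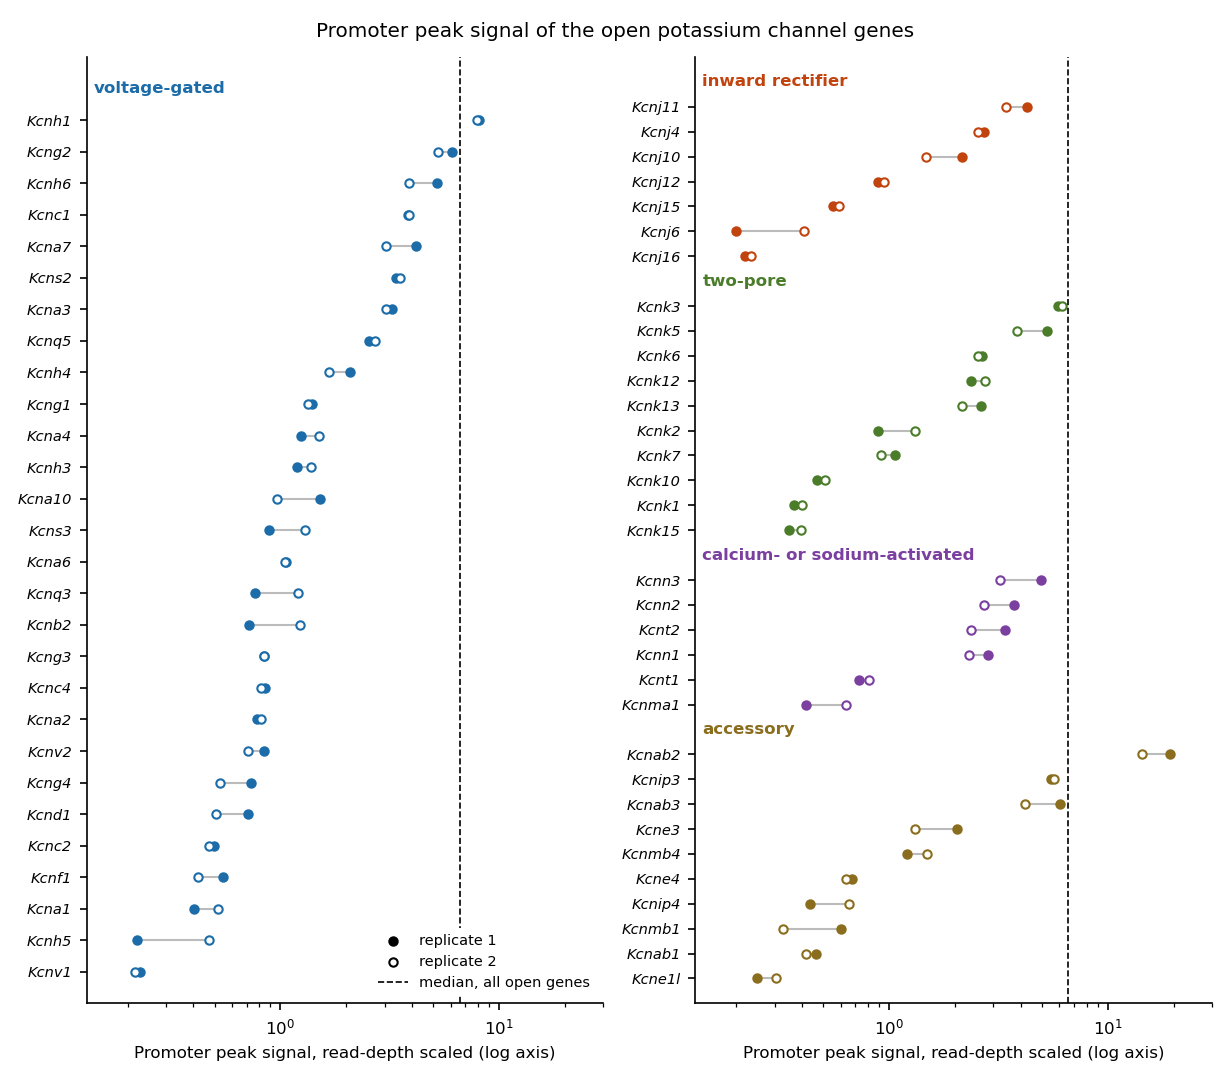
Promoter peak signal (log axis, taken as scaled to read depth) of the open members named in the text, grouped by class and sorted by mean. A filled point is replicate 1, an open point is replicate 2, and a dashed line marks 6.60, the median of all open genes. Kcnab2 and Kcnh1 lie above the line in both replicates, and the others drawn have means below it.

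A further 7 members had a promoter peak in a single replicate, each of low signal. Kcnip1 had 0.322, Kcnmb2 0.191, Kcnh7 0.215, Kcnh8 0.179 and Kcns1 0.472, all in replicate 2. Kcnk16 had 0.355 and Kcnk4 0.638, both in replicate 1. Another 12 had no peak, and those reported by name are given with their classes. The authors list the runs of bases whose cutting has a false discovery rate (FDR) under 0.05. Of the 83 members, 11 had no such base in their promoters in either replicate, against 27.5% of all genes. Kcnk9, also without a peak, had 0.10% of its promoter bases listed.

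The replicates were close to even over the members. Replicate 1 was the higher in 35 of 64 open members (54.7%), against 80.7% of all open genes. On the log2 scale replicate 1 exceeded replicate 2 by a median of 0.06 in members, against 0.26 in all open genes. Among genes with a mean under 2, replicate 1 was higher in 17 of 40 members (42.5%), against 63.7% of all such open genes.

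Promoters of the open members were somewhat below the typical breadth of open promoters, while their height was much lower. The median share of promoter bases with FDR under 0.05 was 20.4% in open members, against 23.4% in all open genes, and 24 of the 64 lay above the median open gene by this measure. At the broad end, Kcng3 had 86.9% of its bases listed at a mean signal of 0.839 and Kcnc4 80.7% at 0.831. Kcna3 had 72.5% at 3.13 and Kcnk13 56.7% at 2.38. These 4 genes lay at percentiles 99.0, 98.3, 96.5 and 90.4 for breadth, and at 9.34, 9.22, 29.2 and 23.7 for height. Kcnab2 lay at percentile 92.3 for height and 19.6 for breadth, its height being that of the peak shared with Nphp4. Breadth is taken over the windows of all starts of a gene, of which Kcnab2 has 12 and Kcnk13 has 3, while Kcng3, Kcnc4 and Kcna3 have 1 each.

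**Figure D3:**
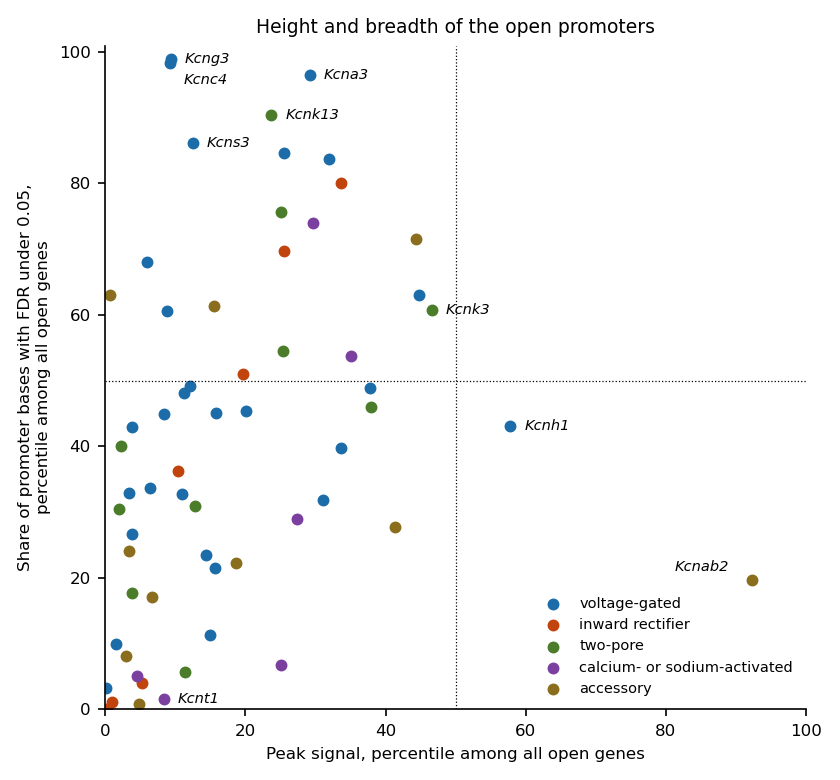
Each point is an open member named in the text, with the percentile of its peak signal among all open genes on the horizontal axis and the percentile of its share of promoter bases with FDR under 0.05 on the vertical axis, coloured by class; dotted lines mark the medians. Of the points drawn, Kcnab2 and Kcnh1 lie right of the vertical median line. More points, though a minority, lie above the horizontal one, with Kcng3 and Kcnc4 near the top at percentiles 99.0 and 98.3.

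Base composition was set beside this. A 5' end was called CpG-rich where the surrounding 500 bp on each side had a CpG observed over expected ratio of at least 0.6 and at least 50% GC. Such ends were found in 32 members (38.6%), against 44.4% of all genes. Of the CpG-rich members 28 were open (87.5%), with a median of 2.59, against 97.5% and 8.97 for all CpG-rich genes. Of the CpG-poor members 36 of 51 were open (70.6%), with a median of 0.892, against 45.8% and 2.94 for all CpG-poor genes. Openness and signal were taken over every annotated start, so the peak can lie far from the scored sequence. Kcnip3 was called CpG-poor at position 127522094, while its highest peak begins at 127482541. The stretch printed for that peak is 70.5% G or C with 16 CpG dinucleotides. Base composition at the open starts themselves was not tested. The voltage-gated class held 18 of the 36 open CpG-poor members, and 18 of its 19 CpG-poor genes were open. Kcnk9, Kcnh7 and Kcnh8 were among the CpG-rich members that were not open.

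The sequences of a few of the stronger promoter peaks follow as examples, and weaker promoters may differ. They are the highest promoter peak in each class among members with a RefSeq promoter entry in GRCm38.p6 and no other gene at the peak, and 60 of the 83 members had an entry. Each was read from the RefSeq GRCm38.p6 genome (the assembly of mm10, of C57BL/6J) 5' to 3' on the gene's strand, over the stretch that is a peak in both replicates and stops short of the gene's own exons. Capitals mark bases under footprints of both replicates, that is, short stretches that were protected from cutting.
Kcnh1, chr1:192190641-192190773, plus strand: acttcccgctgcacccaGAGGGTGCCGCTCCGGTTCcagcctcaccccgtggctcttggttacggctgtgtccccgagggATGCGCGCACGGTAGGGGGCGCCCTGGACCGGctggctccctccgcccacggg
Kcnj4, chr15:79506021-79506180, minus strand: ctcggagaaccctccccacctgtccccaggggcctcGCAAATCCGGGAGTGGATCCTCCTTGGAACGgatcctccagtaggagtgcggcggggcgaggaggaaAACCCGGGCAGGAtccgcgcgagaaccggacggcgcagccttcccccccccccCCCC
Kcnk5, chr14:20181810-20181940, minus strand: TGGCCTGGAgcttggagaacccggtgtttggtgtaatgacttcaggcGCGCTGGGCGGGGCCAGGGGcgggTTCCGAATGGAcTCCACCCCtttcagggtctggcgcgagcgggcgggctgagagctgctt
Kcnn3, chr3:89519961-89520160, plus strand: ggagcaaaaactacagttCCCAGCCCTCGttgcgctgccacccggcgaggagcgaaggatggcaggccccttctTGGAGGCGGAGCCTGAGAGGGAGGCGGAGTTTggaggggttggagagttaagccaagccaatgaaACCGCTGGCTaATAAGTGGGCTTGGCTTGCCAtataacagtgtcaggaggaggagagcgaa
Kcnip3, chr2:127482541-127482740, minus strand: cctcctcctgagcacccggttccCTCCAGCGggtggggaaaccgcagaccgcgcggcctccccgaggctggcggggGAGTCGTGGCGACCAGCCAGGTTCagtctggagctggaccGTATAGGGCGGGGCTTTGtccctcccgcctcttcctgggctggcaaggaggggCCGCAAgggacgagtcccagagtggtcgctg
The 5 stretches are 58.5% to 72.9% G or C, and footprints of both replicates cover 48 to 74 of their bases. The middle of the Kcnj4 peak lies 859 bp upstream of the only annotated start of that gene. Of the consensus sequences searched on both strands, GGGCGG, bound by the KLF and SP proteins, has 1 match at Kcnh1, 3 at Kcnk5 and 1 at Kcnip3, and none at Kcnj4 and Kcnn3. That consensus was in 47.8% of 28060 shared regions at promoters, in the middle 200 bp. The consensus sequences of GATA, TEAD, E-box, ETS and AP-1 proteins had no match in the 5 stretches. That of GATA, searched as AGATAA, was in 3.28% of shared promoter regions, and that of TEAD, searched as GGAATG, was in 8.03%. No match says only that these letters are not in this stretch.

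Around the members the median count of shared regions was 5 per gene, in the gene body and 10 kb either side, against 3 over all genes. With the smaller peak set both medians were 3. The members are longer, with a median of 32.3 kb, against 17.4 kb, and per 100 kb the medians were 7.66 and 6.92. By class the medians were 5 for voltage-gated, 4 for inward rectifier, 3 for tandem-pore, 10.5 for calcium- or sodium-activated and 5 for accessory genes. Per 100 kb they were, in the same order, 9.18, 9.63, 5.04, 4.83 and 7.38. The calcium- or sodium-activated genes, of median length 122 kb, thus had the highest median count and the lowest median per 100 kb. Kcnma1 held the most, at 22, and Kcnip1 had 18. Kcnn3 and Kcnj6 had 16 each, Kcnab1, Kcnn1 and Kcnq5 14 each, and Kcng2 13. Kcnj13 had none. Per 100 kb the counts for Kcnn1 and Kcnk3 were 34.0 and 21, and those for Kcnma1 and Kcnq5 were 2.95 and 2.40. Kcnip1 and Kcnj6 are genes of 364 and 249 kb, and per 100 kb they held 4.69 and 5.95 regions, below both medians. The promoter of Kcnip1 was closed in replicate 1 and that of Kcnj6 had a mean of 0.302, from peaks that do not overlap between the replicates.

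Of 485 shared regions around members, 324 lay outside every protein-coding promoter, 199 in introns, 36 in exons, 49 upstream and 40 downstream of the gene. Their median signal was 0.846, against 0.831 for all 76148 shared regions outside promoters. Of the 324, 163 (50.3%) lay above the median of all such regions and 25 (7.72%) in the upper 10%. In signal these regions were thus near the typical region outside promoters, while the open promoters were below the typical open promoter.

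The strongest region lay 2.54 kb upstream of Kcnn1, at 18.4 and 15.1, and the body of Ccdc124 is within 10 kb of it. The surroundings of Kcnn1 held 3 more of the 10 strongest, at 10.2 and 7.71 in an intron, and at 9.37 and 7.45, and 5.99 and 5.50 downstream. The nearest annotated start to all 3 is one of Arrdc2. An intron of Kcnab2 held a region of 8.29 and 6.76, 4.38 kb upstream of a start. A region 6.45 kb upstream of Kcnj4 had 5.80 and 5.91 and lies nearer to Kdelr3. Others lay downstream of Kcnk18 (5.62 and 5.6), upstream of Kcne2 (6.07 and 4.46) and downstream of Kcng1 (4.77 and 3.16). Kcnk18 and Kcne2 had no promoter peak. Kcne2, a subunit that pairs with channels of heart, stomach and choroid plexus, had this region 5.6 kb upstream, and Kcnn4, also closed, had a region of 4.78 and 2.95 at 5.28 kb upstream, near Lypd5.

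**Figure D4:**
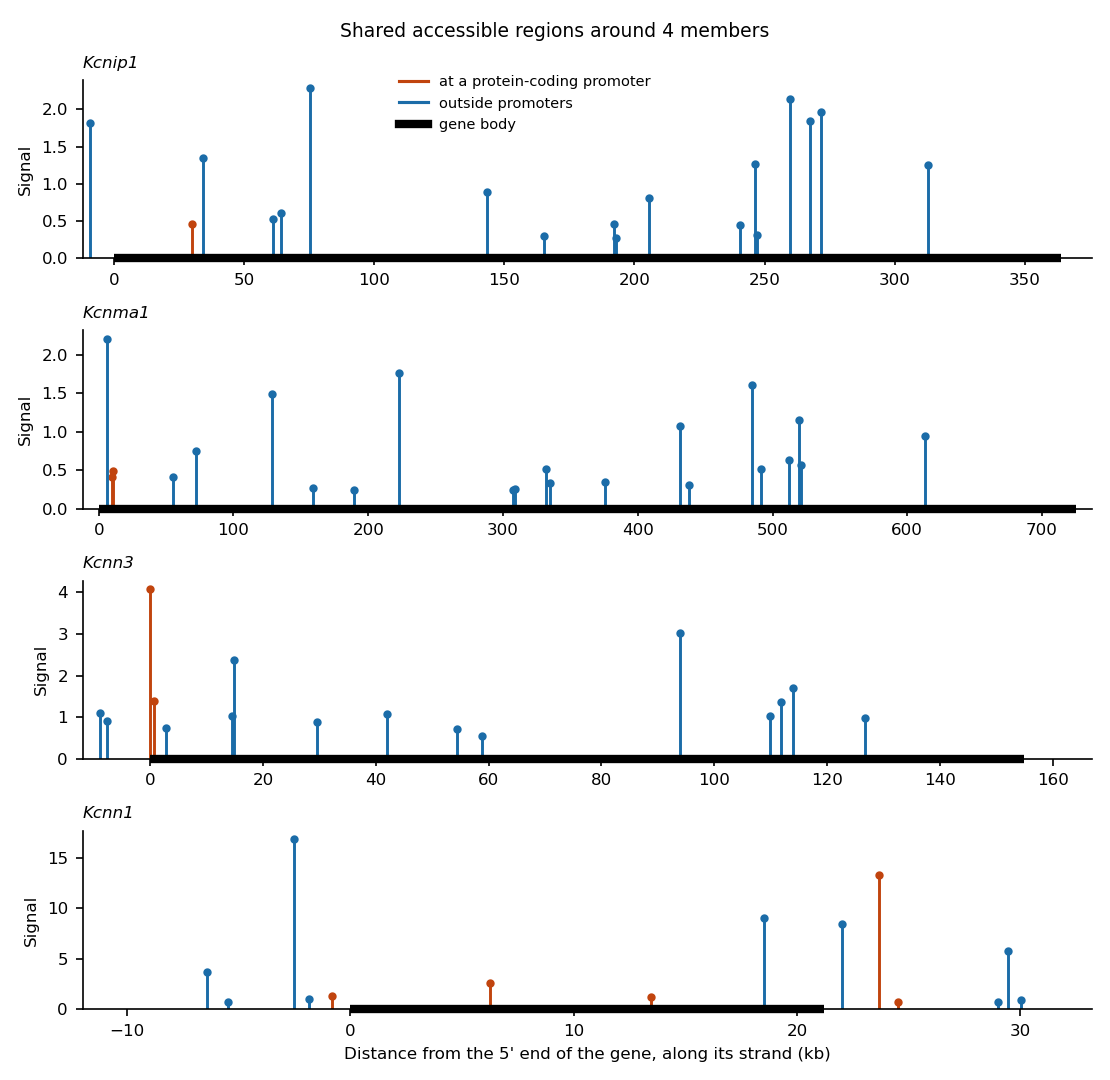
Mean signal of shared regions (vertical axis, taken as scaled to read depth) against distance in kb from the gene's 5' end along its strand. The panels are for Kcnip1, Kcnma1, Kcnn3 and Kcnn1. The thick line is the gene body, and orange marks regions at any protein-coding promoter. Each panel has its own scales. Kcnip1 and Kcnma1 have regions spread over the gene body, and the highest region at Kcnn1 lies 2.54 kb before the gene.

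The Kcnn1 and Kcne2 regions are shown as a strong region near a gene called open and one near a gene with no promoter peak, with capitals as above. The highest promoter peak of Kcnn1 begins at position 70856961 in replicate 1, inside the gene, and so is not next to the region shown.
Kcnn1, chr8:70865651-70865950, minus strand: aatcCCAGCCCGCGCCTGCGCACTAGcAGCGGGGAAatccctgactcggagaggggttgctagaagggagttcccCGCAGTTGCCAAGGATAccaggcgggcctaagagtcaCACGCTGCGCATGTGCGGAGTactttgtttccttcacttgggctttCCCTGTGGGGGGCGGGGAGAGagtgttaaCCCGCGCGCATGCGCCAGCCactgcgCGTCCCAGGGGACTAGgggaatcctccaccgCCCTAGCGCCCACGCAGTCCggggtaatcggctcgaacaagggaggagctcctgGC
Kcne2, chr16:92286701-92286880, plus strand: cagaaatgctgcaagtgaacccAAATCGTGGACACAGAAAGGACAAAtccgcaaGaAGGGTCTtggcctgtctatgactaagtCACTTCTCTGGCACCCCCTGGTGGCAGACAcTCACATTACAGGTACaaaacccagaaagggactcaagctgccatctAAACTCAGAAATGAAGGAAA
The Kcnn1 stretch is 64.3% G or C with 23 CpG dinucleotides. It holds the KLF and SP consensus 2 times and the NRF1 consensus 2 times, and footprints of both replicates cover 148 of its 300 bases. The NRF1 consensus was in 5.50% of shared regions at promoters and in 0.364% of those outside, both in the middle 200 bp. The Kcne2 stretch is 47.8% G or C with 2 CpG dinucleotides, and has 98 of 180 bases under footprints of both replicates. It holds no exact match to the consensus sequences searched, that of CTCF among them. Near matches were not looked for in this stretch, so a site with a differing base would be missed.

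The share of members with a promoter footprint was near that of all genes, but open members had fewer footprints each. In both replicates 57 of 83 members (68.7%) had a promoter footprint, against 67.2% of all genes. Per open member the median number was 4 and 5 in replicates 1 and 2, against 8 and 8 for all open genes. Kcnn2 had 15 and 20, the most in replicate 2, and Kcnj11 18 and 13, the most in replicate 1. Kcng3, with its wide and low promoter, had 8 and 12, and Kcnc4 11 and 11. Kcnab2, whose highest signal is that of the peak shared with Nphp4, had 12 and 13. Footprints too were counted over the windows of all starts. Kcnab2 has 12 starts, Kcnn2 has 7 and Kcnj11 has 5, while Kcng3 and Kcnc4 have 1 each.

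Footprints around members, 1499 in replicate 1 and 1518 in replicate 2, were searched with 10 bp either side for 12 consensus sequences, and the shares are descriptions of single lists. The KLF and SP consensus was in 17.4% and 16.9% of footprints at member promoters, against 17.7% and 17.4% at all promoters. In the footprint alone, without the added bases, it was in 7.32% and 5.72% at member promoters, against 10.2% and 9.28%. The ETS consensus, searched as CCGGAAG, was in 0.610% and 0% at member promoters (2 and 0 footprints), against 2.02% and 1.83%. AP-1, searched as TGANTCA, was in 0.667% and 0.659% around members, against 1.05% and 0.947% of all footprints. E-box, searched as CAGCTG, was in 5.27% and 4.48%, against 3.96% and 3.77%, and CTCF in 2.40% and 2.24%, against 1.74% and 1.69%. Both were rarer in footprints at all promoters, at 2.13% and 2.01% for E-box and 0.472% and 0.409% for CTCF. In replicate 1, 328 of 1499 footprints around members were at member promoters, and 116772 of all 350009 were at any protein-coding promoter. The lists may thus differ in promoter content, which was not adjusted for. RE1, the element bound by the repressor REST, which silences neuronal genes outside the nervous system, was in 0.400% and 0.461% around members (6 and 7 footprints), against 0.117% and 0.121%. At member promoters RE1 was in 1.22% and 1.24% (4 and 5 footprints), against 0.0985% and 0.0969% at all promoters.

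**Figure D5:**
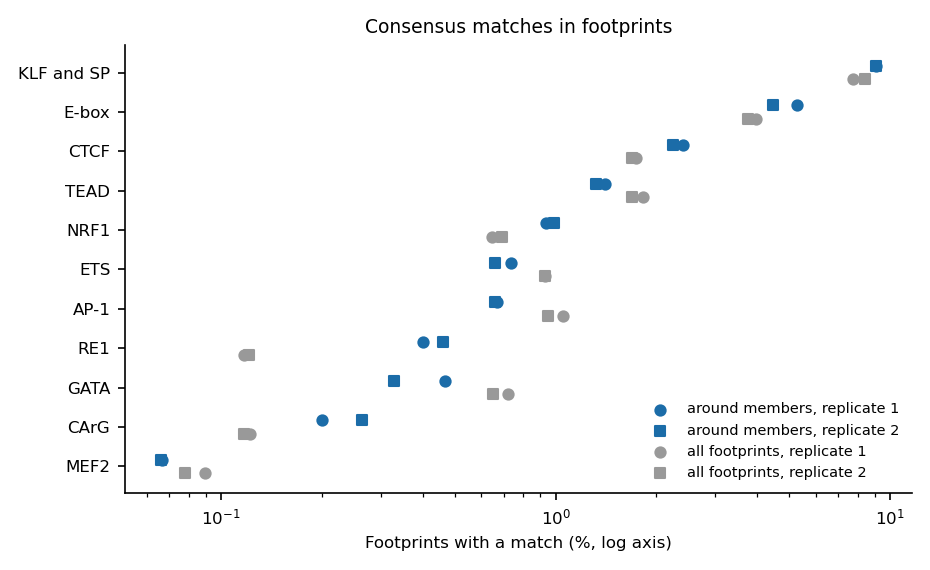
Percentage of footprints with a consensus match (log axis), with blue for footprints around members, grey for all footprints, circles for replicate 1 and squares for replicate 2. RE1 shows the widest gap, at 0.400% and 0.461% around members, against 0.117% and 0.121%, resting on 6 and 7 footprints; NFI, with 1 and 0 footprints around members, is left out.

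Since RE1 rested on few footprints, the whole genome was searched for its 21-base element with 3 mismatches allowed in 19 fixed bases. Around members 11 of 83 genes (13.3%) had a match, against 4.57% of all genes, and there were 1.31 matches per Mb, against 0.713 around all genes. Of the 14 matches 11 lay in a shared accessible region (78.6%), against 49.4% of those around all genes, and 10 (71.4%) lay under a footprint in both replicates, against 42.1% of matches genome-wide. With 2 mismatches allowed, 9 of 83 members (10.8%) had a match, against 1.66%, and 9 of 10 matches were in shared regions, against 76.6% of those around all genes. In promoters, 3 of 83 members (3.61%) had a match, against 0.895% of all genes, or 0.402% with 2 mismatches. With 2 mismatches 9 of 10 matches around members lay under a footprint in both replicates, against 68.5% genome-wide. Of the 11 cardiac repolarisation genes 4 (36.4%) had a match with 3 mismatches and 2 (18.2%) with 2, both shares above those of the members.

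The matches in shared accessible regions were at Kcnh1, Kcnt1, Kcnmb2, Kcnab2, Kcnh4 and Kcnk12, at Kcnip1 with 2 and at Kcnj6 with 3. The match at Kcnh4 lay under its promoter peak of 2.07 and 1.66, that at Kcnk12 under its peak of 2.38 and 2.76, and that at Kcnt1 under its peak of 0.730 and 0.812. The other regions were in the gene or near it, at 1.89 and 1.44 for Kcnh1, 1.36 and 1.14 for Kcnab2, 1.19 and 1.30 for the stronger of Kcnip1, and 1.38 and 1.17 for the strongest of Kcnj6. Kcnmb2 had 0.426 and 0.352. The match at Kcnh7 lay in a region of replicate 1 alone, that at Kcnma1 likewise, and that at Kcnh3 in none. A set of 5 matches in shared regions is shown to make the likeness visible, from RefSeq GRCm38.p6, 5' to 3' on the strand of the element. Capitals mark where a base equals a fixed base of the consensus.
Kcnh4, chr11:100759007-100759027, minus strand: TTCAGCACCctGGACAGCcgC
Kcnh1, chr1:192457718-192457738, minus strand: gTCAGCACCctGGACAGCtCC
Kcnj6, chr16:94972667-94972687, minus strand: TTCAGgACCagaGACAGCGCC
Kcnab2, chr4:152424539-152424559, minus strand: TTCAGCACCcaGGACAGCtCC
Kcnip1, chr11:33680276-33680296, plus strand: TTCAGtACCacGGACAGCaCC
All 5 lie under a footprint in both replicates.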

How the data were processed

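DNase-seq of heart tissue gave 2 biological replicates in 1 group. Per the deposited file listing, peaks, footprints and FDR lists were made by the authors for each replicate on mm10 from that replicate's alignment, with no pooling. For the callers, their versions, the read totals and the handling of CAST alleles, the authors' steps are not given in the sources used. The peak signal deposited by the authors is taken as scaled to read depth, since the listing names such a track, though its formula is unstated. The deposited FDR values are of the p-value kind, as a false discovery rate per run of bases, and only runs under 0.05 are listed. Of the deposited footprints only positions were used, their other value being constant. The larger of the 2 peak sets per replicate was the main set. The coordinates are 1-based.

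Genes came from GENCODE M21, with 1 entry per symbol. Peaks of both replicates that overlapped or touched were merged, and regions with a peak of each replicate were called shared. A peak in the windows of several genes counted for each. Values are means ± SD over n = 2. Genes are not replicates, so no test was made and shares are set beside all genes. Motifs were exact matches on both strands, except RE1: in footprints its parts CAGCACC and GGACAG with 0 to 10 bases between them, and in the genome search its joined consensus. The members, lists, motifs and settings were chosen with earlier results of these data known, and the limit of 2 mismatches for RE1 after seeing the data. Named are up to 3 members per subfamily with the highest signal, those with a peak in 1 or no replicate, the 10 with the most regions, the 10 strongest regions outside promoters and a list of channels of muscle, vessel, blood and nerve. Members named for breadth, footprints or RE1 were chosen after their values were seen. Some genes and a sequence are not reported here. Partner genes were also counted, and 14 of 17 were open. Code for promoter overlap, region merging and the RE1 genome search recovered all planted cases on simulated data. The other motif searches were not checked in this way. Python 3.11.15, numpy 2.4.6, pandas 2.3.3, pysam 0.24.0, samtools 1.23.1 and matplotlib 3.10.9 were used. Alternatives covered windows, starts, peak sets, flanks and each replicate alone.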

Additional observations from a re-analysis of the deposited data

How the results depend on the processing

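The number of open members, 64, was 54 to 69 under other windows, starts and peak sets, and 66 to 69 with a single replicate; with the stronger 50% of peaks it was 41, with 4 inward rectifiers and 5 accessory genes open, since that setting drops weak peaks. All other class counts stayed within 1.5 times of those reported. The median signal of the open members, 1.20, was 1.35 with 2 kb windows, 1.53 with the smaller peak set, 2.60 with the stronger 50% of peaks and 1.06 to 1.23 with a single replicate, each below that of all open genes. The median of shared regions, 5, was 3.00 with no flank, 10.0 with 50 kb, 4 where 50% of a peak had to be covered, 2.00 outside promoters, 3.00 with the smaller peak set, equal to that of all genes, and 5.00 to 6.00 with a single replicate. Members with a promoter footprint in both replicates numbered 52 to 62 under other windows and within peaks, and 60 to 66 with a single replicate. With 2 mismatches, 9 members had an RE1 match in place of 11. In the footprint alone the RE1 share around members was 0.398%, against 0.431% as a mean of the replicates with 10 bp added, and the KLF and SP share at member promoters, 17.4% and 16.9%, was 7.32% and 5.72%, below that at all promoters. Of the 83 single-gene signals, 22 moved by over 1 SD with the stronger 50% of peaks, 11 with the 5' end alone, 10 with 2 kb windows and 8 with the smaller set. The read depth behind a peak is unknown, which limits what can be said of closed promoters and absent footprints. No paired analysis was possible because there is 1 group.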
